A study of Caenorhabditis elegans with 6 samples.

Results

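The DBL-1 pathway sets body size in *Caenorhabditis elegans*, and 10 of its genes were followed here among the 47157 gene IDs of an RNA-seq comparison of wild type with a *blmp-1* mutant. They were picked by gene name as the core of the pathway: the ligand gene *dbl-1*, the extracellular regulators *lon-2* and *sma-10*, the receptors *sma-6* and *daf-4*, the Smads *sma-2*, *sma-3* and *sma-4*, the cofactor *sma-9* and the target *lon-1*. All 10 were found once by name, and all 10 passed the filter on low values. RNA came from whole young adults, raised from bleach-synchronised first-stage larvae, of the strain N2 (3 libraries) or of *blmp-1(s71)* (3 libraries). The labels give neither the lesion of s71 nor the sex or the number of animals, and no other allele or agent is named for either group. BLMP-1 is a zinc finger regulator of transcription, and the libraries were compared for transcripts whose abundance changes with its mutation.

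DBL-1 is a secreted ligand of the BMP branch of the TGF-beta family, made largely by neurons, that acts on the epidermis. It is received by a pair of receptor kinases, which phosphorylate Smad proteins that then enter the nucleus with their partners and control transcription, cuticle collagen genes among them. In worms, loss of an activating component gives small animals (hence "sma") and loss of an inhibiting component gives long ones (hence "lon").

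Of the 10 genes, 8 had a positive and 2 a negative log2 fold change in the mutant, but none passed the test at an adjusted p under 0.05 in limma, against 22.3% of the 13756 genes tested. Of the 3061 limma calls over all genes, 2907 had an adjusted p of 0.03 to 0.05 and 38 one under 0.01, so most lay near the threshold. The largest differences were those of the type I receptor gene *sma-6* and the Smad gene *sma-4*, each with 1.73 times the wild-type mean and each just over the threshold. The type II receptor gene *daf-4* and the glypican gene *lon-2* had slightly negative values. At an unadjusted p under 0.05 limma had 4 of the 10, against 44.8% of all tested genes. edgeR's quasi-likelihood test on reads called 1 of the 10, *sma-4* (20.5% of all genes), and DESeq2 called 2, *sma-6* and *sma-4* (27.5% of all genes). The median log2 fold change of the 10 was 0.49, and that of all tested genes was 0.07. Reads per member and library ran from 15 to 1888.

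Library totals ran from 5255125 to 15218178 reads on genes, lowest in both libraries numbered 1, which also held 4.01% and 4.56% ribosomal RNA against 0.841% to 1.28% in the others. *blmp-1* itself stood at 61, 130 and 165 reads in wild type against 157, 215 and 92 in the mutant, so its transcript level does not check the genotype. The number of calls over all genes hung on single libraries: limma called 1.94%, 1.29% or 1.63% without wild-type library 1, 2 or 3, 0.327% or 0.284% without mutant library 1 or 2, and 36.0% without mutant library 3. No gene of the marker lists for adult tissues was at 0 throughout. Limma had 6 of 8 oocyte markers and 6 of 8 germline markers lower and 5 of 7 sperm markers higher, with none the other way. In the same order edgeR had 4, 6 and 5 and DESeq2 had 8, 6 and 6, also with none the other way. Limma called none of 7 intestinal, 7 pharyngeal and 7 body wall muscle markers (0, 1 and 0 at an unadjusted p under 0.05, none by edgeR or DESeq2). Of all genes tested, limma called 13.4% lower and 8.84% higher. edgeR called 20.5% (12.04% lower and 8.48% higher) and DESeq2 27.5% (15.7% lower and 11.7% higher). In limma 44.8% of them had an unadjusted p under 0.05. The summed level of the oocyte genes was 2795 to 3571 CPM in wild type and 662 to 2238 CPM in the mutant, and that of the germline genes was 2417 to 3286 and 1037 to 2074 CPM. All 6 yolk protein genes had negative log2 fold changes (median -1.64). Limma and edgeR called none of them (3 at an unadjusted p under 0.05 in limma), and DESeq2 called 3 lower (15.7% of all genes). Their summed level was 165800 CPM in wild-type library 1, against 44440 and 55670 CPM in the other wild-type libraries and 30480 to 55110 CPM in the mutant. In whole animals, fewer cells of a type and less RNA per cell cannot be told apart.

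Levels below are CPM, reads scaled to a common library total, divided by TMM factors that adjust for differences in composition between libraries. *dbl-1* (WBGene00000936, chromosome V, 6758135 to 6760418 on the plus strand in WBcel235) stood at 14.04, 10.8 and 11.8 CPM in wild type, libraries 1 to 3 in that order, and at 21.7, 17.4 and 13.1 CPM in the mutant. The groups overlapped, since mutant library 3 lay below wild-type library 1. The means were 12.2 ± 1.67 and 17.4 ± 4.27 CPM (SD, n = 3), and the log2 fold change was 0.46 (SE 0.25, 95% interval -0.09 to 1.01, limma adjusted p = 0.173). Without mutant library 1 the log2 fold change was 0.24, and without mutant library 3 it was 0.63.

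Neurons are the main known source of DBL-1, and of 8 neuronal marker genes 3 rose (*sbt-1*, *egl-21* and *egl-3*, all of neuropeptide processing and release), none fell and 5 did not pass. Over all genes tested, 8.84% were called higher and 13.4% lower. The summed level of the neuronal markers was 333 to 385 CPM in wild type and 467 to 530 CPM in the mutant, so the groups did not overlap. Most of the difference lay in the called genes, with means of 72.0 and 124.7 CPM for *egl-3*, 68.45 and 111.3 CPM for *egl-21*, and 36.9 and 63.7 CPM for *sbt-1*. *snb-1*, the most abundant of the list, and *unc-119* overlapped, with log2 fold changes of -0.03 and 0.07. *rab-3*, *unc-104* and *ric-4* were not called but lay higher in every mutant library (0.70, 0.52 and 0.56). The part of these markers in the level of *dbl-1* was not tested.

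**Figure D1:**
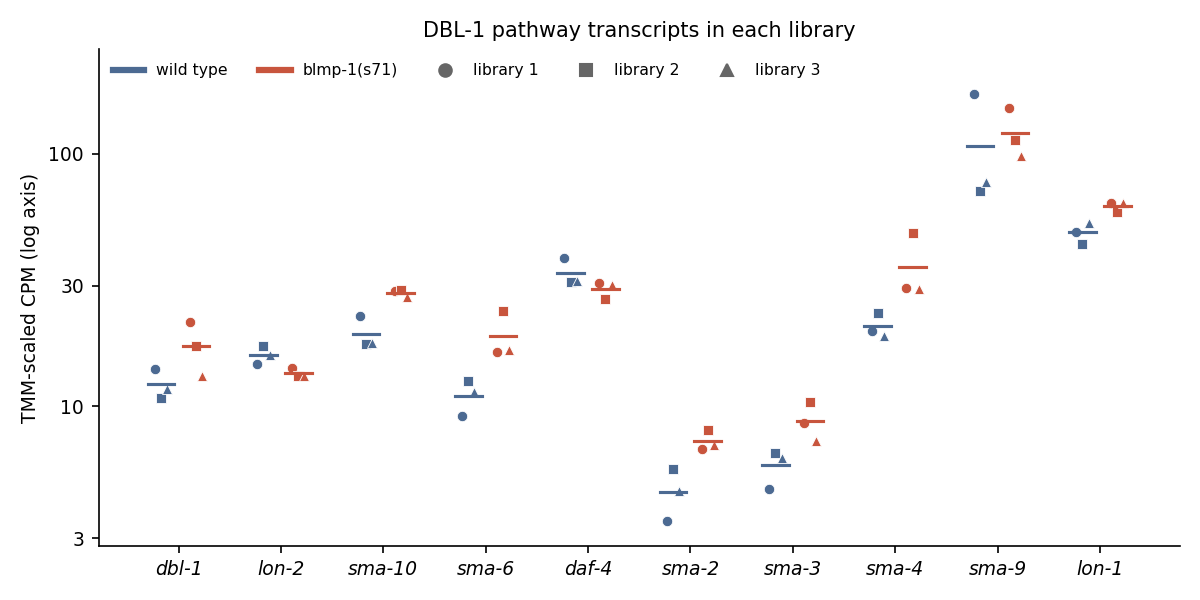
TMM-scaled CPM (log axis) of the 10 DBL-1 pathway genes in 3 wild-type (blue) and 3 *blmp-1(s71)* (red) libraries. Points are single libraries, with a shape for each library number, and bars are group means; 6 genes lie higher in all mutant libraries than in any wild-type library, *lon-2* and *daf-4* lie lower, and *dbl-1* and *sma-9* overlap.

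Outside the cell the ligand meets *lon-2*, a glypican that binds DBL-1 and holds signalling down, and *sma-10*, a membrane protein with leucine-rich and immunoglobulin-like repeats that promotes it. *lon-2* (WBGene00003056, chromosome X, 4738964 to 4749083, minus strand) had 14.7, 17.3 and 15.9 CPM in wild type and 14.2, 13.1 and 13.1 CPM in the mutant. The mutant libraries lay just below the wild-type ones, with a log2 fold change of -0.23 (SE 0.22, 95% interval -0.71 to 0.26, limma adjusted p = 0.425). On the deposited CPM, with no scaling between libraries, the groups overlapped and the value was 0.080, and on TPM it was 0.020.

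*sma-10* (WBGene00020649, chromosome IV, 274420 to 279943, plus strand) had 22.7, 17.6 and 17.9 CPM in wild type and 28.7, 28.9 and 27.1 CPM in the mutant. All mutant libraries were above all wild-type libraries and close to each other. The log2 fold change was 0.53 (SE 0.22, 95% interval 0.05 to 1.001, limma adjusted p = 0.0846). It was called with library size alone (0.85, adjusted p = 0.0398 in limma) and with TPM (0.74, adjusted p = 0.0488 in limma). With the replicate number as a block limma also called it (0.53, adjusted p = 0.0492).

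The receptor genes had fold changes of opposite sign on the TMM scale. *sma-6*, which encodes the type I receptor for DBL-1 (WBGene00004860, chromosome II, 6324484 to 6327355, plus strand), had 9.13, 12.6 and 11.4 CPM in wild type and 16.5, 23.9 and 16.8 CPM in the mutant. Every mutant library was above every wild-type one, and mutant library 2 was the highest. The means were 11.02 ± 1.74 and 19.04 ± 4.22 CPM, with a log2 fold change of 0.73 (SE 0.25, 95% interval 0.19 to 1.27, limma adjusted p = 0.0525). DESeq2 called it (0.78, adjusted p = 0.0325) and edgeR did not (0.78, adjusted p = 0.0537). With limma it passed without mutant library 3 (0.80, adjusted p = 0.0456) and with none of the other 5 libraries left out in turn, where the lowest value was 0.56, without mutant library 2.

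*daf-4* (WBGene00000900, chromosome III, 5625135 to 5632323, plus strand), the type II receptor that DBL-1 shares with the dauer ligand DAF-7, had 38.9, 31.2 and 31.4 CPM in wild type and 30.8, 26.6 and 30.3 CPM in the mutant. The mutant libraries lay slightly lower with no overlap, and the log2 fold change was -0.20 (SE 0.21, 95% interval -0.66 to 0.26, limma adjusted p = 0.466). On the deposited CPM the order was the opposite, with 31.6, 30.8 and 27.7 in wild type and 33.3, 32.2 and 32.6 in the mutant, and the log2 fold change was 0.12. The direction of *daf-4* therefore depended on the scaling.

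The Smads carry the signal to the nucleus: *sma-2* and *sma-3* encode receptor-regulated Smads and *sma-4* their common partner. *sma-4* (WBGene00004858, chromosome III, 5816232 to 5820204, plus strand) had 19.9, 23.4 and 18.9 CPM in wild type and 29.5, 48.6 and 29.2 CPM in the mutant. The groups did not overlap, and mutant library 2 stood well above the other mutant libraries. The means were 20.7 ± 2.34 and 35.8 ± 11.1 CPM, with a log2 fold change of 0.73 (SE 0.25, 95% interval 0.18 to 1.27, limma adjusted p = 0.0526). edgeR (0.79, adjusted p = 0.0494) and DESeq2 (0.78, adjusted p = 0.0349) called it. With limma it passed without mutant library 3 (0.85, adjusted p = 0.0330), and without mutant library 2 the value was 0.49 (adjusted p = 0.231 in limma).

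*sma-2* (WBGene00004856, chromosome III, 8749680 to 8757089, plus strand) was the lowest of the 10 in CPM, with 3.51, 5.63 and 4.61 in wild type and 6.75, 8.01 and 7.03 in the mutant. The mutant libraries were all higher, and the 15 reads of wild-type library 1 carry an exact Poisson 95% interval of 8.40 to 24.7 reads for counting error alone. The log2 fold change was 0.58 (SE 0.26, 95% interval 0.02 to 1.14, limma adjusted p = 0.102). It passed with upper-quartile scaling (0.70, adjusted p = 0.0465 in limma) and with TPM (0.79, adjusted p = 0.0494 in limma). *sma-2* shares 100 exonic bases with *aak-1* and 52 with *ugtp-1*, both on the opposite strand, and the use of strand in the counting is not given in the sources used here.

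*sma-3* (WBGene00004857, chromosome III, 6860974 to 6863968, minus strand) had 4.68, 6.54 and 6.25 CPM in wild type and 8.58, 10.4 and 7.31 CPM in the mutant. The gap between the groups was small, 7.31 CPM in mutant library 3 against 6.54 CPM in wild-type library 2. The log2 fold change was 0.51 (SE 0.26, 95% interval -0.04 to 1.07, limma adjusted p = 0.137), and it passed in none of the alternatives.

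*sma-9* encodes a large zinc finger protein related to Schnurri that works with the Smads (WBGene00004862, chromosome X, 10769282 to 10782973, plus strand). It had 173, 71.3 and 77.3 CPM in wild type and 153, 114 and 98.2 CPM in the mutant. Wild-type library 1 was the highest of all 6, and the groups overlapped. The log2 fold change was 0.27 (SE 0.33, 95% interval -0.47 to 1.01, limma adjusted p = 0.528), and without wild-type library 1 it was 0.78 (SE 0.25, adjusted p = 0.0587 in limma). Wild-type library 1 and mutant library 1 also had the highest summed levels of 7 body wall muscle markers, 15240 and 13530 CPM against 6504 to 8847 CPM in the other 4 libraries, and of 7 pharyngeal markers, 1173 and 1159 against 294 to 484 CPM. The largest part of the muscle sum was *unc-54*, 9029 and 6946 CPM in these libraries against 1869 to 3443 CPM in the others. *myo-3*, *unc-15* and *hlh-1* were also higher in both than in the others, but *pat-10*, *unc-27* and *lev-11* were not. Most of the pharyngeal sum in both was *myo-1* and *myo-2*. *pha-4*, *tnt-4* and *marg-1* were also higher in both, but *pqn-94* and *tnc-2* were not. The part of these markers in the level of *sma-9* was not tested.

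*lon-1* encodes a secreted cysteine-rich protein that limits body length, and the DBL-1 pathway represses it in worms (WBGene00003055, chromosome III, 5474476 to 5478005, plus strand). It had 49.2, 44.1 and 53.3 CPM in wild type and 63.7, 59.0 and 63.8 CPM in the mutant. The groups did not overlap, and the spread within each was small. The means were 48.9 ± 4.58 and 62.2 ± 2.72 CPM, with a log2 fold change of 0.35 (SE 0.20, 95% interval -0.09 to 0.78, limma adjusted p = 0.195). It passed with TPM (0.61, adjusted p = 0.0399 in limma).

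The Smads and *lon-1* act in the epidermis, where of 8 epidermal markers limma called *col-19* and *lin-26* lower and none higher, edgeR called 2 lower and none higher, and DESeq2 called 2 lower and 2 higher. Over all genes limma called 13.4% lower and 8.84% higher, edgeR 12.04% and 8.48%, and DESeq2 15.7% and 11.7%. Of the 8, 5 had a positive log2 fold change, and the list median was 0.43. Their summed level was 2549 to 3152 CPM in wild type and 1628 to 2048 CPM in the mutant, and most of it was the adult collagen gene *col-19*, with means of 2747 and 1512 CPM. The part of these in the levels of the Smad genes, *sma-6* and *lon-1* was not tested.

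**Figure D2:**
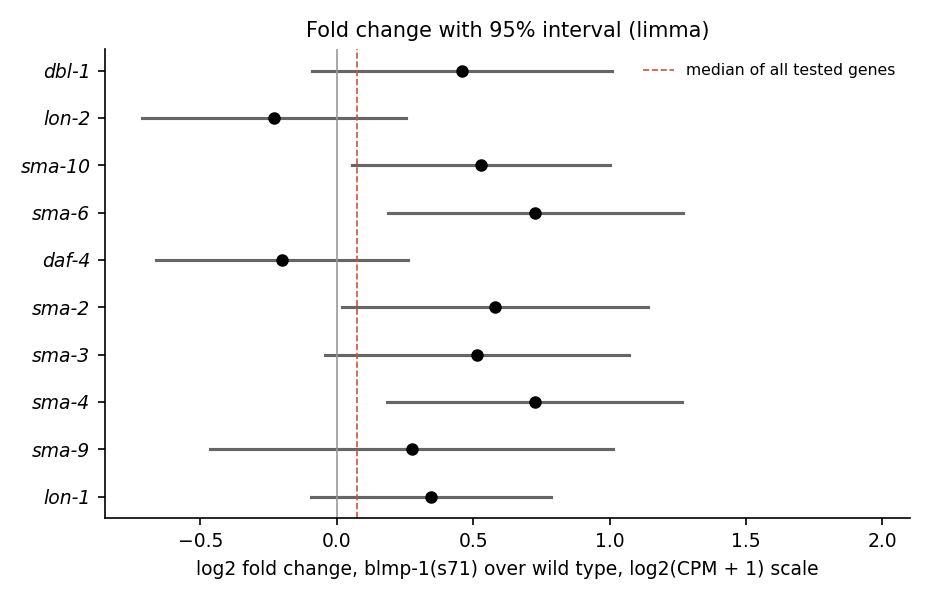
Log2 fold change of each gene on the log2(CPM + 1) scale, mutant over wild type, with 95% intervals from limma over 3 against 3 libraries. The intervals of *sma-6*, *sma-4*, *sma-2* and *sma-10* lie above 0 before adjustment over all genes; the dashed line marks the median of all tested genes, 0.07.

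The number of the 10 called by limma differed between settings, among them the scaling, a replicate block and the presence of mutant library 3. It called 2 with median-of-ratios scaling (25.3% of all genes) and with TMM factors taken from the tested genes alone (24.3%), 3 with the upper quartile (24.3%), 3 with library size alone (17.6%) and 5 with TPM (20.0%). Without mutant library 3 it called *sma-6* and *sma-4* (36.0%), as edgeR did (37.9%), and without any other single library neither tool called a member (edgeR called 1.81%, 0.669% and 0.596% of all genes without wild-type library 1, 2 and 3, and 0.582% and 0.436% without mutant library 1 and 2). The count was also 0 with voom (23.6%), with pseudocounts of 0.1, 0.5 and 2 (19.8%, 21.4% and 22.7%), with no filter on low values (0.503%) or edgeR's own (21.3%), with ribosomal RNA removed (22.4%), and without both libraries numbered 1 (0.909%) or 3 (21.4%). With the replicate number as a block limma called 3 (42.7% of all genes) and edgeR 2 (40.1%). These were *sma-10*, *sma-6* and *sma-4* in limma (adjusted p = 0.0492, 0.01815 and 0.0114) and *sma-6* and *sma-4* in edgeR. Every call among the 10 in the settings named here was of a higher level in the mutant.

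On the TMM scale 6 of the 10 lay higher in every mutant library than in any wild-type library, against 22.6% of all tested genes, and 2 lay lower, against 26.0%. On the deposited CPM 8 lay higher (34.0% of all genes) and none lower (6.63%), and on the deposited TPM 7 lay higher (34.3%) and none lower (14.7%). The scalings shifted all genes together: the median log2 fold change of all tested genes was 0.07 with TMM, 0.04 with median of ratios, 0.18 with the upper quartile, 0.35 with library size alone and 0.30 with TPM. Subtracting that median takes out such a common shift, so the members had to lie at nearly the same distance from it in the 5 settings. *sma-6* lay 0.64 to 0.68 above it and *sma-4* 0.65 to 0.69 above it. *dbl-1* lay 0.38 to 0.42 above it and *lon-1* 0.27 to 0.32 above it. *lon-2* lay between -0.31 and -0.27 and *daf-4* between -0.28 and -0.23 relative to the median, also where their own fold change was positive. The 5 settings are not separate checks of these distances or of their sign.

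**Figure D3:**
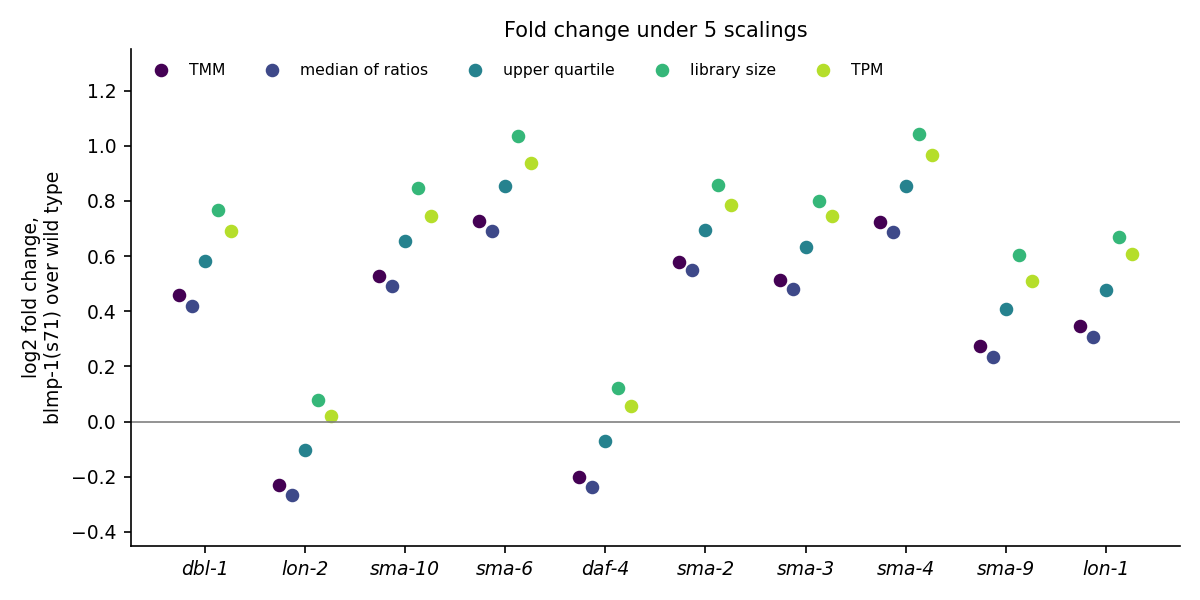
Log2 fold change (mutant over wild type) of the 10 genes in limma under 5 scalings of the same libraries. *lon-2* and *daf-4* are below 0 with TMM, median of ratios and the upper quartile and above 0 with library size and TPM, while the other 8 are above 0 in all 5.

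Ratios of 2 genes within a library do not depend on the scaling, and 5 such ratios of reads were taken after the values had been seen. *sma-6* over *daf-4*, the type I over the type II receptor, was 0.235, 0.402 and 0.363 in wild type and 0.534, 0.900 and 0.554 in the mutant. Every mutant library was higher, and the mean log2 ratio differed by 0.99 (exact permutation test, two-sided, p = 0.1, the smallest that 3 against 3 libraries allow; adjusted over the 5 ratios, p = 0.167). *dbl-1* over *lon-2*, ligand over glypican, was 0.952, 0.623 and 0.738 in wild type and 1.52, 1.32 and 1.0 in the mutant, a difference of 0.73 in log2 with no overlap. *sma-10* over *lon-2* was 1.54, 1.01 and 1.12 in wild type and 2.02, 2.20 and 2.06 in the mutant, a difference of 0.80 with no overlap. Both had the same p of 0.1 in the exact permutation test, and they share *lon-2*. On the TMM scale *sma-6* and *sma-10* already lay higher in every mutant library, and *daf-4* and *lon-2* lower. The lack of overlap of *sma-6* over *daf-4* and of *sma-10* over *lon-2* was therefore fixed in advance. So was their p of 0.1 in the exact permutation test, and neither ratio adds support to the single genes. Among the Smads the ratios overlapped between the groups: *sma-2* over *sma-3* was 0.738 to 0.861 in wild type and 0.773 to 0.962 in the mutant, and *sma-4* over *sma-3* was 3.02 to 4.25 and 3.44 to 4.69 (p = 0.5 for both in the exact permutation test).

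**Figure D4:**
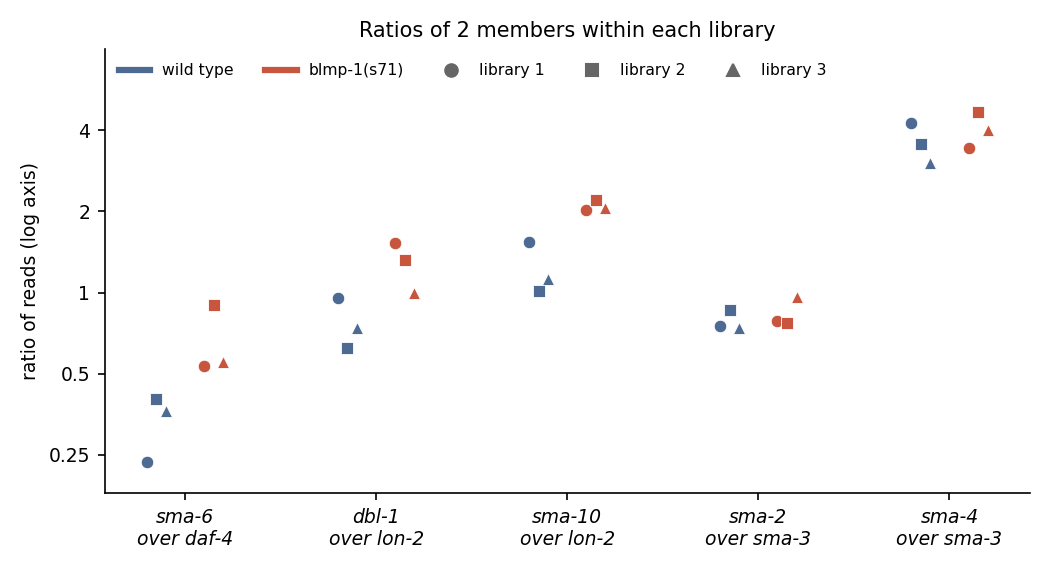
Ratio of the reads of 2 genes within each library (log axis), for 3 wild-type (blue) and 3 mutant (red) libraries. The groups are apart for *sma-6* over *daf-4*, *dbl-1* over *lon-2* and *sma-10* over *lon-2*, and overlap for both ratios of Smads.

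Levels of different genes can be compared only per length, for which the deposited TPM was used. *lon-1* was the most abundant in both groups, at 49.0 ± 4.24 TPM in wild type and 75.2 ± 2.28 TPM in the mutant, apart from all others. In wild type *sma-9* (16.5 ± 9.82 TPM), *sma-4* (12.8 ± 1.75 TPM) and *daf-4* (12.5 ± 2.36 TPM) followed and overlapped. *lon-2* (9.84 ± 0.758 TPM), *dbl-1* (8.37 ± 1.59 TPM) and *sma-10* (7.95 ± 1.66 TPM) came next and also overlapped. *sma-6* (6.08 ± 0.798 TPM) overlapped *sma-10* slightly and *sma-3* (5.10 ± 0.688 TPM) more, and *sma-2* was lowest, at 3.53 ± 0.749 TPM, with no overlap with *sma-3*. The type II receptor transcript was thus above the type I receptor transcript in every wild-type library, 10.8 to 15.2 against 5.38 to 6.94 TPM.

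In the mutant *sma-4* was the second, at 26.7 ± 8.89 TPM, and overlapped *sma-9* at 22.1 ± 5.39 TPM. *dbl-1* (14.3 ± 3.75 TPM), *sma-10* (13.9 ± 0.869 TPM), *daf-4* (12.9 ± 0.846 TPM) and *sma-6* (12.7 ± 3.11 TPM) were close together and overlapped, and the highest library of *dbl-1* (17.9 TPM) passed the lowest of *sma-9* (17.3 TPM). Both receptor transcripts then lay in one range, 12 to 13.7 TPM for *daf-4* and 10.8 to 16.3 TPM for *sma-6*. *lon-2* stood at 9.99 ± 0.600 TPM, below *sma-6* without overlap, followed by *sma-3* at 9.30 ± 1.88 TPM and *sma-2*, again the lowest, at 6.76 ± 0.755 TPM, each overlapping the one before. *daf-4* went from place 4 to 6 and *lon-2* from 5 to 8, while *dbl-1* went from 6 to 4 and *sma-10* from 7 to 5. The lengths implied by the deposited CPM and TPM, set to the median of the 10, were within 0.960 to 1.04 times the exon length of the reference for 9 of them and 0.896 times for *sma-2*.

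**Figure D5:**
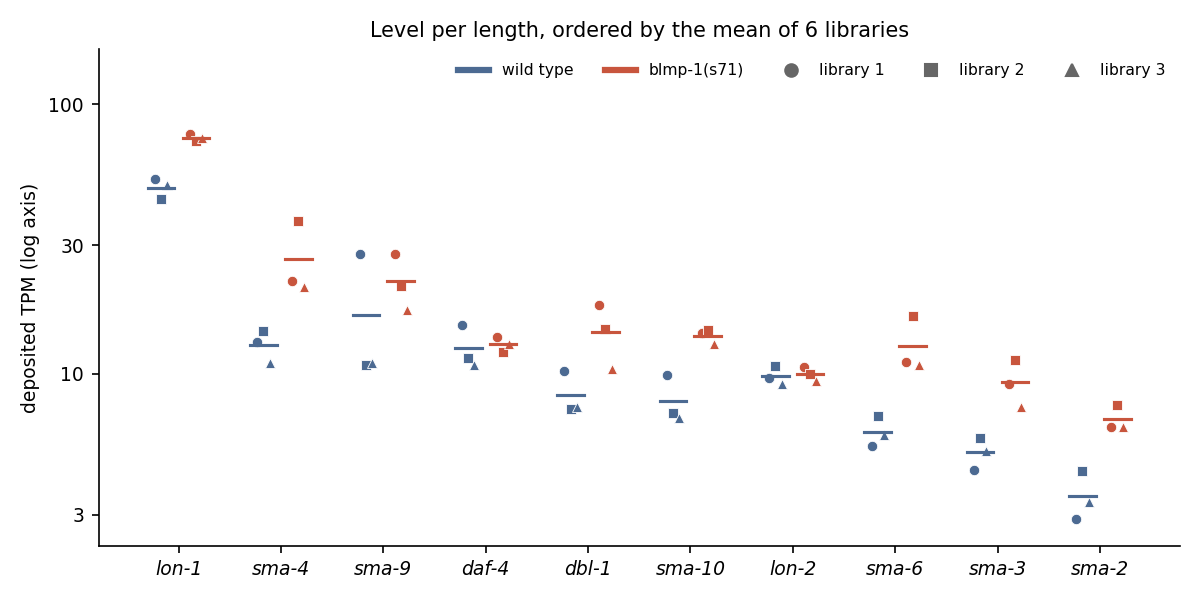
Deposited TPM (log axis) of the 10 genes, ordered by the mean of the 6 libraries, in wild type (blue) and *blmp-1(s71)* (red). *lon-1* is highest and *sma-2* lowest in both groups. The levels of *daf-4* and *lon-2* are nearly equal between the groups on this scale, on which the median log2 fold change of all tested genes was 0.30.

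The genes around the pathway were read from the same fit. Of 9 other TGF-beta genes 8 were tested, and 7 had a positive log2 fold change with a list median of 0.46. Limma called none (22.3% of all genes), edgeR none (20.5%) and DESeq2 1 (27.5%). In limma 3 had an unadjusted p under 0.05 (44.8% of all genes). The dauer ligand gene *daf-7* went from 7.80 ± 1.56 to 11.6 ± 1.19 CPM (log2 fold change 0.54, limma adjusted p = 0.117). Its type I receptor gene *daf-1* went from 28.1 ± 5.14 to 24.0 ± 4.49 CPM (-0.22, limma adjusted p = 0.472). The dauer Smad genes stood at 0.39 (*daf-8*), 0.69 (*daf-14*) and 0.08 (*daf-3*), and the Ski-related cofactor gene *daf-5*, the most abundant of the list, at 0.26 (SE 0.27, limma adjusted p = 0.444). The remaining ligand genes *tig-2* and *unc-129* stood at 0.56 and 0.70, and *tig-3*, with 2 to 16 reads a library, was not tested.

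Of 15 genes that modify DBL-1 signalling 13 were tested, and limma had 1 higher and 3 lower (8.84% and 13.4% of all genes), with a median of 0.39. edgeR had 1 higher and 2 lower (8.48% and 12.04% of all genes), and DESeq2 had 2 higher and 3 lower (11.7% and 15.7%). *adt-2*, a secreted ADAMTS protease that acts on the cuticle and body size, had 59.0, 43.7 and 49.2 CPM in wild type and 101, 92.8 and 95 CPM in the mutant, and rose by 0.92 (SE 0.21, limma adjusted p = 0.0337). All mutant libraries were far above the wild-type ones. *sup-17*, an ADAM protease, fell by 0.91, with 143 to 177 CPM in wild type and 71.4, 66.3 and 134 CPM in the mutant (SE 0.27, limma adjusted p = 0.0396). Its mutant library 3 lay near wild type, and edgeR did not call it (adjusted p = 0.0516). *tsp-12*, a tetraspanin that acts with SUP-17 in the worm, fell by 0.92 (SE 0.26, limma adjusted p = 0.0360), with 67.4 to 94.6 CPM in wild type and 36.1, 34.0 and 62.5 CPM in the mutant. *snx-3*, a sorting nexin of endosomes, fell by 0.66 (SE 0.21, limma adjusted p = 0.0413), from 56.8 ± 6.64 to 35.3 ± 0.808 CPM.

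The calls depended on which libraries were in the fit, on the scaling and on the filter, while the sign of the fold change did not. *sup-17*, *tsp-12* and *snx-3* kept their calls when mutant library 3 was left out (limma adjusted p = 0.00542, 0.00589 and 0.0344). Each lost its call when any of the other 5 was left out, and the highest limma adjusted p, 0.172, 0.160 and 0.160, came without mutant library 2. Where the call was lost in this way the log2 fold change of *snx-3* ran from -0.74 to -0.59, that of *tsp-12* from -0.96 to -0.76 and that of *sup-17* from -0.999 to -0.72. With library size alone all 3 lost the call (-0.58, -0.59 and -0.34, limma adjusted p = 0.122, 0.127 and 0.313). Further losses included *sup-17* and *snx-3* with TPM (limma adjusted p = 0.0932 and 0.0971) and *sup-17* with the upper quartile (limma adjusted p = 0.068). With no filter on low values, losses included *sup-17*, *snx-3* and *adt-2* (limma adjusted p = 0.0705, 0.0736 and 0.0625). *adt-2* kept its call without wild-type library 1 and without mutant library 3, and lost it without any of the other 4 (log2 fold change 0.83 to 0.95, limma adjusted p of 0.0716 to 0.158). Limma called no more than 1.94% of all genes in any of the 5 fits that left out a library other than mutant library 3. *rnt-1* and *bro-1* were too low to be tested.

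Of 13 transcripts that earlier work in worms places downstream of DBL-1, 12 were tested, limma called 1 higher (8.84% of all genes) and 0 lower, and the median was 0.58. edgeR had 1 higher (8.48%), DESeq2 had 4 higher (11.7%), and both had 0 lower, while 5 of the 12 had an unadjusted p under 0.05 in limma (44.8% of all genes). The one called was *cnc-2*, an epidermal antimicrobial peptide gene that DBL-1 signalling promotes, with 7, 15 and 7 reads in wild type against 83, 179 and 144 in the mutant. It stood at 1.64, 1.14 and 0.521 CPM and at 11.7, 10.8 and 13.5 CPM, and passed with each library left out in turn (limma adjusted p of 0.00116 to 0.0112). It belongs to a family of similar neighbours, as many collagens do, and how reads that match several genes were counted is not stated. The collagen genes *rol-6*, also one of the epidermal markers, and *col-41* had log2 fold changes of 2.37 (SE 0.89) and 2.51 (SE 1.003), but with a spread that kept them from passing (limma adjusted p = 0.103 and 0.116). The collagen *col-142* (0.10), the lysozyme *lys-8* (0.00) and the desaturases *fat-6* (0.28) and *fat-7* (-0.23) did not pass. *spp-9* had 0 to 2 reads a library and was not tested.

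Of 12 further body size genes, of which *lon-3* also counts among the modifiers and *dpy-7* among the epidermal markers, limma and edgeR called *lon-8* higher (8.84% and 8.48% of all genes) and none lower. DESeq2 called 2 higher (11.7% of all genes) and 1 lower (15.7%), and the median was 0.54. *lon-8* encodes a secreted epidermal protein that limits body length, and had 6.55, 11.9 and 12.7 CPM in wild type and 43.3, 30 and 14.2 CPM in the mutant. The log2 fold change was 1.32, with an SE of 0.40 (limma adjusted p = 0.0441). Mutant library 3 lay just above wild type. The call was lost with limma-voom (1.29, adjusted p = 0.0541). It held without mutant library 3 (1.75, limma adjusted p = 0.00570) and was lost without any of the other 5 libraries (limma adjusted p of 0.0819 to 0.173). *lon-3*, a cuticle collagen, and *sma-1*, a spectrin, had log2 fold changes of 1.19 (SE 0.89) and 0.40 (SE 0.51) that did not pass.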

How the data were processed

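RNA was measured by sequencing in 6 libraries, 3 of each strain, and the groups and replicate numbers are those of the sample titles. The authors deposited for each library CPM and TPM per gene, per the file headers. Per the submitters' processing notes the tools included Trimmomatic 0.36, HISAT2 2.1.0, featureCounts 1.6.3 and, separately, DESeq2 1.22.0, with no roles stated. Not given in the sources used here were the build, the annotation and the strand setting, and the WBcel235 positions printed may differ from the build used.

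In every library 100% of nonzero CPM values came out as whole reads, to within 0.01 reads. The recovered reads gave TMM factors (0.813 to 1.21). limma 3.58.1 (R 4.3.3) was fitted on log2(CPM / factor + 1) with group as the only term, trend and robust moderation, for the 13756 genes that reached 1 CPM in 3 or more libraries, with Benjamini-Hochberg adjustment at 0.05 over all of them. The +1 understates changes of low genes. edgeR 4.0.16 and DESeq2 1.42.0 on the recovered reads, and scipy 1.17.1 for exact permutation tests, were used as alternatives or for single ratios. Whether the biological replicates named by the design text came from separate cultures is not stated, so p-values measure the spread between these libraries.

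The 10 genes, the lists around them and the settings were chosen with earlier results of these data known. From those lists the text names up to 4 called genes by smallest adjusted p, or the most abundant where none was called, and gives others as values only. Other named genes of the lists were chosen after their values were seen. The series matrix was not used, and no protein or promoter sequences were used here, so the planned motif search was not run.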

Additional observations from a re-analysis of the deposited data

How the results depend on the processing

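limma called 0 of the 10 genes and 3061 of all genes. Of the 10, edgeR called 1 and DESeq2 2. Limma called 2 with median-of-ratios scaling or TMM factors from the tested genes, 3 with the upper quartile or library size alone, and 5 with TPM. At an adjusted p under 0.1 in limma 3 of the 10 passed, as did at least 5750 of the 13756 genes tested. With a library left out, 0 to 2 of the 10 were called, and over all genes 39 to 4957 by limma and 60 to 5210 by edgeR (249, 92 and 82 without wild-type library 1, 2 and 3, and 80 without mutant library 1). Over all genes, 115 were called with no filter on low values and 125 without both libraries numbered 1. The share of all calls that were higher was 39.7%, and 60.8% with the upper quartile, 94.2% with library size alone and 87.3% with TPM. With the replicate block limma called 5877 genes (42.7%) and 3 of the 10 (*sma-10*, *sma-6* and *sma-4*), and edgeR with the block called 5512 (40.1%) and 2. *lon-8* was not called with it (adjusted p = 0.122 in limma, 0.114 in edgeR). Deviations of same-numbered libraries correlated at 0.36, 0.44 and -0.09. The libraries numbered 1 and those numbered 2 correlated best with each other, and the libraries numbered 3 did not. These values do not settle whether the numbers pair the libraries, and the main fit had no block.

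The direction turned for *lon-2* and *daf-4* with library size alone (0.080 and 0.12) and TPM (0.020 and 0.056). With a library left out it turned for *sma-9* in edgeR (-0.12 without mutant library 1, -0.041 and -0.0061 without wild-type library 2 and 3), *daf-5* in edgeR (-0.017 without wild-type library 2) and *blmp-1* (-0.23 to 0.46 in limma, -0.23 to 0.53 in edgeR). The causes were not tested. Chosen after seeing the data were pseudocount 2, edgeR's filter, edgeR with a library left out, the other thresholds, leaving out both libraries numbered 3, the TMM factors from tested genes and the within-library ratios. Reads of 15 to 1888 per gene and library limit the precision.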
